A study of Mus musculus with 16 samples.

Results

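The replication-dependent histone genes were followed in mouse testis after conditional loss of Ythdc2, the gene of an m6A-binding RNA helicase that germ cells need for meiosis. Members were chosen by name and level: gene IDs whose GENCODE M21 symbol begins with Hist1h, Hist2h, Hist3h or Hist4h, without the testis-specific Hist1h1t, Hist1h2aa and Hist1h2ba, and with 10 or more in 2 or more of the 4 libraries of the P16 table of control and knockout. Of 67 gene rows with such a name, 63 passed, out of 55414 gene rows in each table. They comprised 5 linker histone (H1), 16 H2A, 18 H2B, 11 H3 and 13 H4 genes, of which 51 belong to the Hist1 cluster, 8 to Hist2, 3 to Hist3 and 1 to Hist4. The 4 left out were Hist1h2aj, with values of 3.88 to 6.62, Hist1h2al, with 2.08 to 5.18, and Hist2h2aa1 and Hist2h3c1, listed at 0. The members just inside were Hist1h2ap, with values of 11.6 to 37.4, Hist2h3c2, with 15.5 to 32.0, and Hist1h2br, with 7.76 to 44.4. All 63 reached 10 in both controls, and 62 in all 4 libraries of that table.

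The series held 16 testis libraries. At postnatal day 14 (P14) and 16 (P16) there were 2 control and 3 Ythdc2 conditional knockout (cKO) libraries each, and the Cre controls comprised 2 libraries at P14 and 4 at P16. Mice of all groups, both control types included, had received tamoxifen (10 mg/ml) on days 12 and 13, so no untreated testis enters any comparison. The labels name neither the Cre driver nor the alleles of either control type, and do not say whether a library is 1 animal, so p-values measure only the spread between libraries. Controls and cKO libraries 1 and 2 were depleted of ribosomal RNA with the Ribo-Zero kit (the first kit), and Cre controls and cKO library 3 with an NEBNext kit (the second kit). Per the column headers, the first kit was sequenced in 1 run and the second in 2: Cre control library 1 of P16 shared a run with both P14 Cre controls and cKO library 3 of both stages, and Cre control libraries 2 to 4 of P16 came from another. Kit and control type cannot be told apart, and neither can kit and run, since no run holds both kits. Both kits keep RNA without a poly(A) tail, as most transcripts of these genes are.

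Core histones package DNA into nucleosomes, and linker histone H1 binds between them. Genes of this family are switched on when a cell enters S phase, where new DNA needs new histones, and their mRNAs end in a short hairpin, the stem-loop, in place of a poly(A) tail. Stem-loop binding protein (SLBP) holds the hairpin, and the U7 particle directs the cut that follows it. In the juvenile testis, DNA is copied by dividing spermatogonia, by spermatocytes before meiotic prophase and by some somatic cells. Since these are bulk libraries, fewer cells of a type and less RNA per cell cannot be told apart.

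The hairpin was searched for in the annotated transcripts, because the family shares it besides its name. It was found in 43 of the 63 members, in 8 spellings of 16 letters, the commonest in 24 members and the next, an H4 type, in 7. A member without a match lacks these letters in its annotated transcript, which for several genes ends at the stop codon. The following are transcript sequences of GENCODE M21 (GRCm38), 5′ to 3′, with the hairpin in capitals, 2 members for each of 4 spellings. The pairs were chosen after their P16 values were seen, as members that share a hairpin and had unlike changes. The part of the hairpin in the changes was not tested.
Hist3h2ba: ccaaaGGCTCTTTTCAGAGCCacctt
Hist1h1e: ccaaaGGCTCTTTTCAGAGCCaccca
Hist1h2bb: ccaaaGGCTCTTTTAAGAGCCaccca
Hist1h3e: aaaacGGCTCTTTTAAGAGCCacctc
Hist1h4i: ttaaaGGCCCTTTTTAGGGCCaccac
Hist2h4: ctaacGGCCCTTTTTAGGGCCaacca
Hist1h4n: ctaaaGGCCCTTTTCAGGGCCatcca
Hist4h4: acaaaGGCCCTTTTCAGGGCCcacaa

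Promoter windows, 250 bases before to 50 after the transcript start, were found for 57 members in RefSeq (GRCm38.p6). Short words known from histone promoters were searched on both strands. The TATA word TATAAA was present in 56.1% of the members' windows and in 13.6% of all 32851 windows of that length. The word CCAAT was present in 84.2% against 37.4%: in every H1, H2A, H2B and H3 window and in 3 of 12 H4 windows. The octamer ATTTGCAT was present in 19.3% against 1.74%, in 6 of 16 H2A and 5 of 15 H2B windows and in no H1, H3 or H4 window. The word AAACACA, known from H1 promoters, was present in 4 of 5 H1 windows, and in 10.5% of all members' windows against 7.18%. A match is a description, not a bound site. The windows of the H2B and H4 genes with the largest falls at P16 are printed, with matched words, or their reverse complements, in capitals.
Hist3h2ba, chr11:58948661-58948960, plus strand: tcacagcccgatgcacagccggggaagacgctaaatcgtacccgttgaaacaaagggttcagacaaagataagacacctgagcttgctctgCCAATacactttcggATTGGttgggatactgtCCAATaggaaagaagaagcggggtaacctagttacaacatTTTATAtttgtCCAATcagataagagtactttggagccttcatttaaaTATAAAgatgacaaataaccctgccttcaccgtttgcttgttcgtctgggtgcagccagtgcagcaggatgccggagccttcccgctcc
Hist1h4n, chr13:21832148-21832447, minus strand: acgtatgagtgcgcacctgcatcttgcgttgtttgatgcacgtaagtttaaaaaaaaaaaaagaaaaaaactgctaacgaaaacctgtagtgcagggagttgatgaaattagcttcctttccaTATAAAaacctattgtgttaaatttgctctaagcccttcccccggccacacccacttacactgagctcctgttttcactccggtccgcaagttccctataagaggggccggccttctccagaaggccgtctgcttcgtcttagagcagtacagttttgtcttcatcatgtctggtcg

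Reads on genes numbered 22220565 to 27531529 per library in the first kit and 14494867 to 23200252 in the second. A member held from 1 to 42884 reads in a library, and 2 members fell under 10 reads in at least 1 library. Ythdc2 itself was lower in every cKO library than in every control library of its table. At P14 it held 2027 and 2262 in controls and 658 and 753 in cKO libraries 1 and 2. At P16 it held 2666 and 2609 in controls and 502 and 541 in cKO, and in the table of the Cre controls 1711, 1392, 2633 and 1597 in these and 411, 446 and 226 in cKO libraries 1 to 3. All deposited values are reads divided by a size factor of the library within its table, so levels are compared within a table. Levels summed over members are given as RPM, reads scaled to the same number of gene reads in every library, which can be set side by side across tables.

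At P14 the family stood at a similar level in control and cKO, where Ythdc2 was reduced but not absent. Its 63 genes together took 7068 and 7213 RPM in the controls and 6668 and 7305 in cKO libraries 1 and 2, and the groups overlapped. At P16 the controls held 6831 and 6931 and cKO libraries 1 and 2 held 3136 and 3406, which is 47.5% of the control mean. In the second kit the values were different. Cre controls held 5637 and 6511 at P14 and 4637, 4033, 4036 and 4482 at P16, and the third cKO library held 6740.5 at P14 and 4200.0 at P16. At P16 that cKO library lay among the 4 Cre controls, at 97.7% of their mean, but it shared its sequencing run with Cre control library 1 alone, and was at 90.6% of that library. All 5 P16 libraries of the second kit were below the P16 controls of the first kit and above its cKO libraries.

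**Figure D1:**
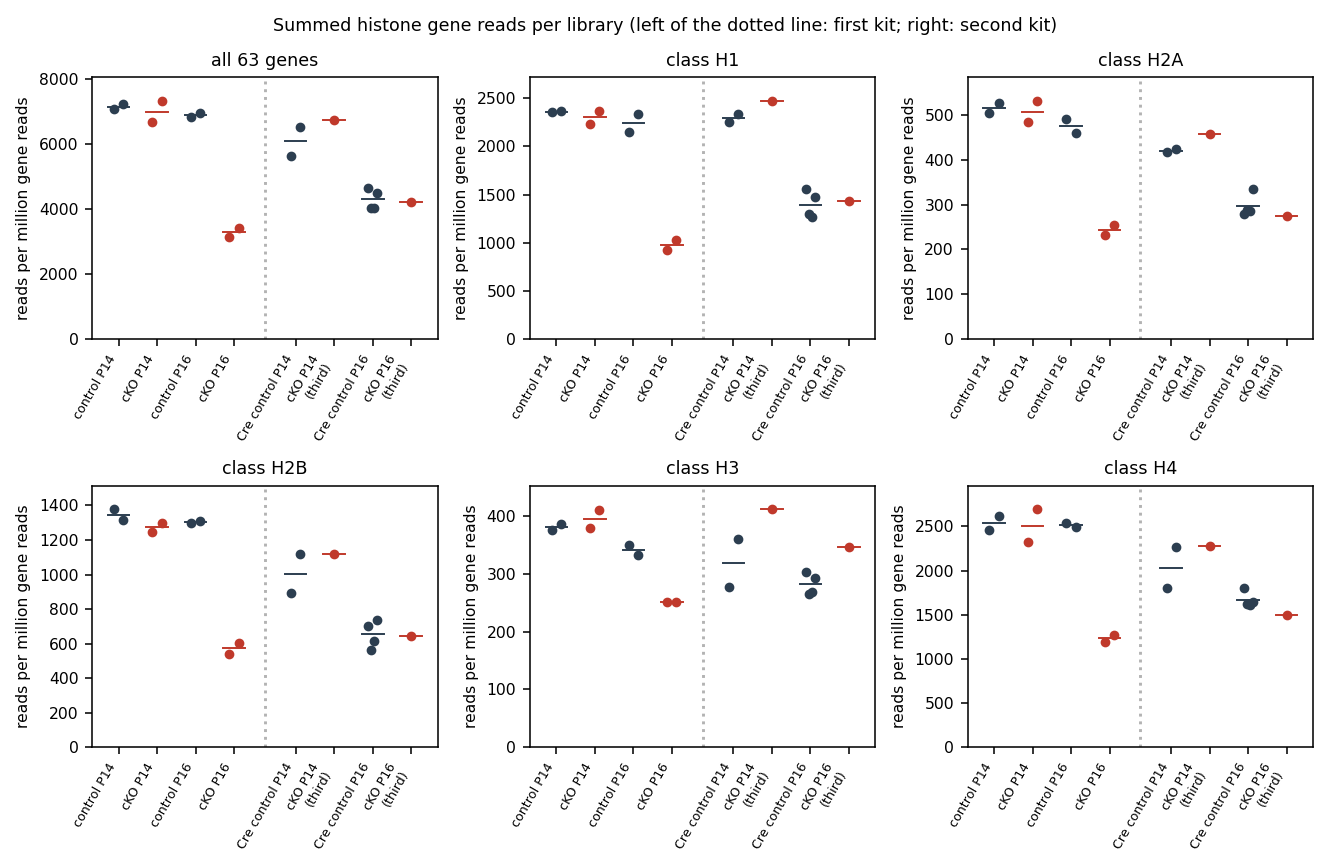
Reads of the histone genes summed per library, in RPM, for all 63 members and for each class, by group; points are libraries. The cKO libraries of the first kit at P16 hold 3136 and 3406 against 6831 and 6931 in the controls, while the third cKO library, at 4200.0, lies among the 4 Cre controls and below the 1 of its own run, at 4637.

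The first comparison set cKO against control at P14, in the first kit, with 2 libraries in each group. No member was called (limma, adjusted p under 0.05), beside 0% higher and 0.00579% lower of 17270 genes tested, the 1 called gene being Ythdc2. edgeR's quasi-likelihood test also called 0 members, as did the fit over both kits with the kit as a covariate, beside 0.00529% of 18892 genes. At an unadjusted p under 0.05 there were 4 members of 63, beside 2.37% of all genes. The median log2 change was -0.01 over the members and 0.01 over all genes, with 29 members higher and 34 lower. Both cKO libraries lay below both controls in 10 members and above both in 8, beside 14.5% and 15.1% of all genes. The 2 members with the smallest p were H2B genes. Hist1h2bm held 8732 and 8282 in control and 7329.9 and 7405 in cKO, a difference on the log2 scale of -0.21 (SE 0.050, limma adjusted p 1.00, not called). Hist1h2bk held 2157 and 2127 in control and 1890.5 and 1877 in cKO, a change of -0.19 (SE 0.052, limma adjusted p 1.00, not called). In both, the cKO libraries lay just below the controls.

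At P16 the same comparison gave lower values for most of the family. The rule that chose the members read their level in this table, so their values are given as a description, without p-values, and nothing is read from the counts. By the fit over the whole table, 46 members were called lower and 0 higher, beside 19.9% lower and 18.6% higher of 17986 genes (limma; edgeR also called 0 higher). The median log2 change was -0.74 over the members and 0.00 over all genes, and 57 of 63 were lower. Both cKO libraries lay below both controls in 51 members and above both in 2, Hist1h2bh and Hist1h3i, beside 35.4% and 34.2% of all genes. In 10 members the groups overlapped. With the libraries of both kits in the fit and the kit as a covariate, 17 members were lower and 1 higher, beside 7.49% and 6.07% of 19932 genes.

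**Figure D2:**
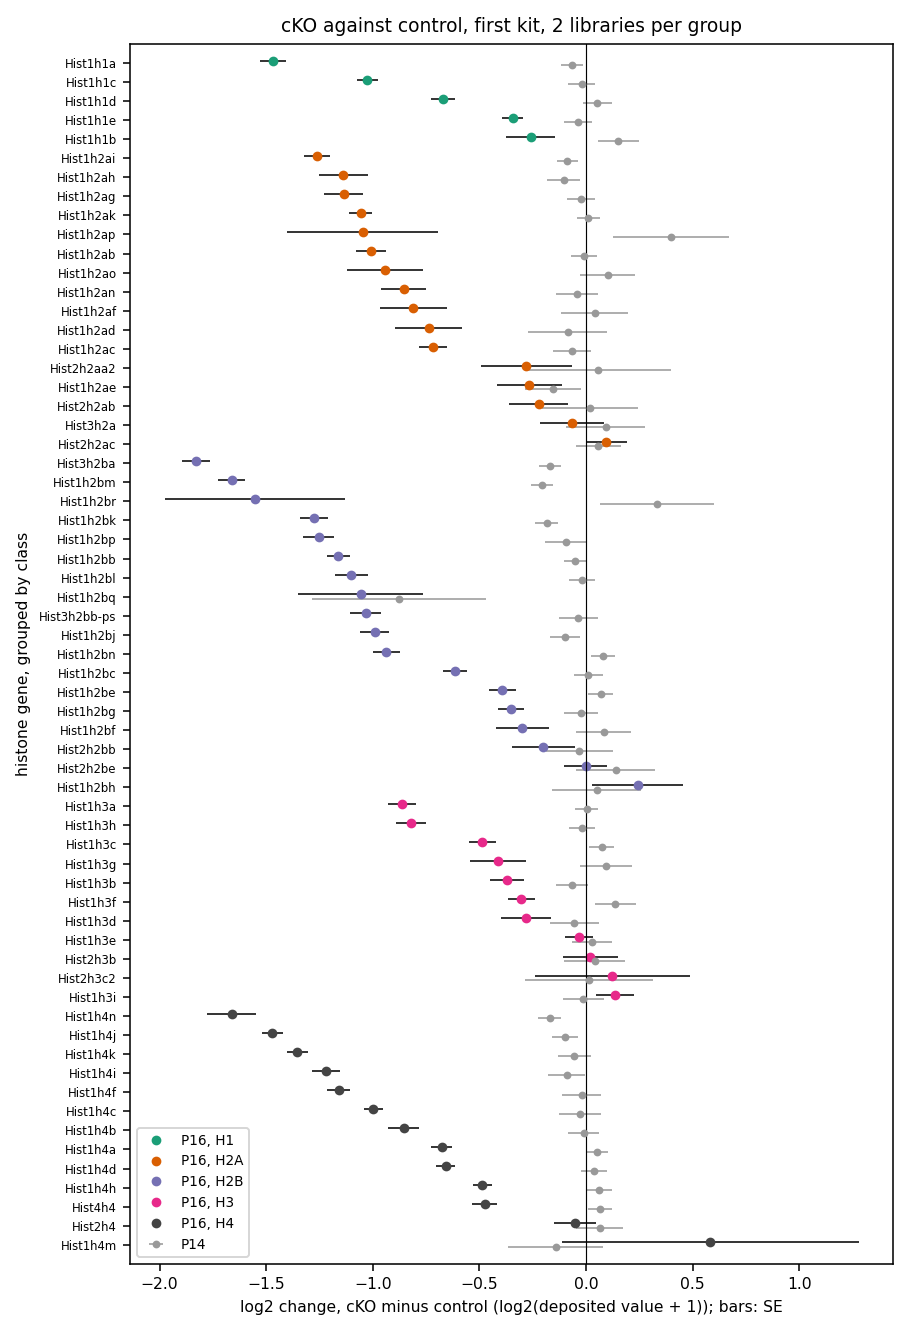
Log2 change of each histone gene, cKO minus control, in the first kit, at P14 and P16, with its standard error, by class. At P14 the changes centre on -0.01 and at P16 on -0.74.

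The linker histones were led by Hist1h1a, which encodes an H1 subtype abundant in testis. In the P16 table it had the highest value per kilobase of transcript of all members, 35607, and took 20.0% of the family's summed value. Its deposited values at P16 were 36962 and 40535 in control and 13120.0 and 14922 in cKO, a log2 change of -1.47 (SE 0.059). At P14 they were 38579.8 and 37917 in control and 36748 and 36318 in cKO. In the P16 table of the Cre controls, these held 18023, 13883, 14689 and 17128 and the third cKO library 15869. The cKO libraries of the first kit were thus slightly below control at P14 and far below at P16, while the third lay among the 4 Cre controls and below library 1, the one of its own run. Hist1h1c, a somatic subtype, held 11895 and 12801 in control and 5844 and 6284 in cKO at P16, a change of -1.03 (SE 0.049). Hist1h1e, another somatic subtype, went from 4547 and 4887 to 3627 and 3801, a change of -0.34 (SE 0.049). It overlaps Hist1h2be on the same strand in the annotation, so the split of reads between them is uncertain. As a class, 4 of 5 H1 genes were called lower at P16, and their summed level was 43.5% of control.

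Of the 16 H2A genes, 11 were called lower, with a median of -0.83, and the summed level was 51.1% of control. The H2A genes with the highest values per kilobase were Hist1h2ai, Hist1h2ak and Hist1h2ab. Hist1h2ai held 3384 and 3254 in control and 1298 and 1471 in cKO at P16, a log2 change of -1.26 (SE 0.060). Hist1h2ak held 2846 and 2911 in control and 1335 and 1431 in cKO, a change of -1.06 (SE 0.052). Hist1h2ab held 1789 and 1547 in control and 811 and 840.0 in cKO, a change of -1.01 (SE 0.070). In each of them every cKO value was below every control value. At the other end of the class, Hist2h2ac, named after its values were seen, held 320.0 and 360.1 in control and 348 and 378 in cKO, and the groups overlapped. H2A genes are near copies of each other: of the stretches of 50 bases in Hist1h2ai, 9.88% occur in no other annotated transcript, and in Hist1h2ak 43.0%. Reads mapped to several places were counted apart from the genes, so levels of such genes may be understated. The ranking by value per kilobase shares this limit.

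The H2B genes ranged from -1.83 to 0.24 on the log2 scale, with 14 of 18 called lower, a median of -1.01 and a summed level at 43.9% of control. Hist3h2ba had the largest fall of the 63 members. It held 4126 and 4268 in control and 1092 and 1278 in cKO at P16, a change of -1.83 (SE 0.066), after 3667 and 3486 in control and 3181 and 3174 in cKO at P14. Of its stretches of 50 bases, 77.9% occur in no other annotated transcript. In the table of the Cre controls at P16 it stood at 1758, 1185, 1367 and 1697 in these and at 1456 in the third cKO library, which lay between them and below library 1, of its own run. Hist1h2bm, the H2B gene with the highest value per kilobase (11842), held 9216 and 9630.0 in control and 2746 and 3228 in cKO at P16, a change of -1.66 (SE 0.063). Hist1h2bb held 5468 and 5461 in control and 2309 and 2579.9 in cKO, a change of -1.16 (SE 0.053). Hist2h2be, named after its values were seen, did not move with them: it held 250.4 and 268 in control and 265 and 253 in cKO, and the groups overlapped. Its annotated transcript runs 2192 bases past the stop codon, and the hairpin letters searched for are not in it. The class also holds Hist3h2bb-ps, annotated as a pseudogene, with 1044 and 1001 in control and 476 and 522 in cKO.

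The H3 class had the smallest reduction of the 5 class sums at P16, to 73.5% of control. Its median log2 change was -0.30, with 6 of 11 genes called lower. Hist1h3a held 1909 and 1747 in control and 953 and 1055 in cKO, a change of -0.86 (SE 0.066). Hist1h3h held 1263 and 1178 in control and 649 and 733 in cKO, a change of -0.82 (SE 0.072). Hist1h3c held 1487 and 1339 in control and 1016 and 997 in cKO, a change of -0.49 (SE 0.063). In these genes the groups were apart, whereas in Hist1h3e, named after its values were seen, 940.4 and 974 in control overlapped 978 and 893 in cKO. Hist1h3e and Hist1h2bb carry the same hairpin of 16 letters, printed above, with changes of -0.03 and -1.16. The difference between H3 and the other classes was not tested.

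Of the 13 H4 genes, 11 were called lower, with a median of -0.86 and a summed level at 48.9% of control. H4 genes encode nearly the same protein and differ mainly in their flanks. Hist1h4n, with the hairpin of the common H4 type, held 4623 and 4791 in control and 1238 and 1785 in cKO at P16, a change of -1.66 (SE 0.11). The genes with the highest values per kilobase were Hist1h4k, Hist1h4c and Hist1h4h, at 22106, 16639.7 and 10334. Hist1h4k held 9999 and 9827 in control and 3681 and 4082 in cKO, a change of -1.35 (SE 0.050). Hist1h4c held 18365 and 17984 in control and 8736 and 9493 in cKO, a change of -0.997 (SE 0.045). Hist1h4h held 5762 and 5578 in control and 3942 and 4146 in cKO, a change of -0.49 (SE 0.044). In all 4 of these genes the cKO libraries were below the controls. Hist1h4i and Hist2h4, which share a hairpin spelling, were named after their values were seen. Hist1h4i held 1423 and 1329.9 in control and 610.4 and 571 in cKO, a change of -1.22. Hist2h4 held 270.2 and 268 in control and 258 and 261 in cKO, a change of -0.05. Hist4h4, printed above with the hairpin of Hist1h4n and also named after its values were seen, held 2002 and 2010 in control. In cKO it held 1370 and 1518. The largest positive change of any member, 0.58 (SE 0.69) in Hist1h4m, rests on cKO library 1: the values were 107 and 109 in control and 535 and 48.7 in cKO.

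The size of the change at P16 differed between the histone clusters, as a description. The 8 genes of Hist2 had a median log2 change of -0.03, from -0.28 to 0.12, and the 51 of Hist1 had a median of -0.86. Hist1 without its H3 genes, 42 in number, had a median of -0.99. Members with an annotated hairpin had a median of -0.67 (32 of 43 called lower) and those without one -0.90 (14 of 20). Members whose annotated transcript runs at least 500 bases past the stop codon had a median of -0.54 (11 of 16 called lower), and those with a shorter end -0.86 (34 of 46). The 31 members in which at least 50% of the stretches of 50 bases are unique had a median of -0.66, and the other 32 a median of -0.86. By promoter words, the median was -0.78 with TATAAA and -0.81 without, -0.73 with CCAAT and -1.16 without, and -0.72 with the octamer and -0.81 without. None of these splits was tested, and they share clusters and near-identical genes.

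The change in cKO at P16 was then set against that at P14, as the interaction of genotype and stage in the 8 first-kit libraries. It shares the P16 libraries with the rule and is a description too. Of the 63 members, 37 were called lower and 0 higher, beside 4.49% lower and 2.9% higher of 18581 genes (limma on log2 CPM; edgeR also called 0 higher). The median difference was -0.71 over the members and 0.00 over all genes. The largest falls called were Hist3h2ba at -1.64 (SE 0.10), Hist1h4n at -1.48 (SE 0.19) and Hist1h2bm at -1.44 (SE 0.10). With eBayes without a trend, 15 members were called lower. Ythdc2 itself had -0.72 (SE 0.11, limma adjusted p 0.00822) in this term, so its own fall in cKO was larger at P16 than at P14. The part of this in the histone result was not tested.

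Against Cre controls at P16 the family showed no common direction. This table adds 4 Cre controls and the third cKO library, while cKO libraries 1 and 2 are those of the first kit. The rule read those 2 cKO libraries, so members are described here without p-values. Of 62 members tested, 2 were called higher and 5 lower (limma, 3 cKO against 4 Cre control libraries), beside 4.3% and 4.77% of 19200 genes. The median log2 change was 0.04, beside -0.04 over all genes, and 25 members had an unadjusted p under 0.05, beside 38.4% of all genes. Without cKO library 3, which leaves kit and genotype the same split, 18 were higher and 23 lower. The share over all genes is not given for that fit, and nothing is read from these counts. Without any other single library, or with the kit as a covariate, there was no call in either direction. Hist1h4k was called lower, with 5304, 5946, 5699.9 and 5603 in Cre controls and 3015, 3365 and 4005 in cKO libraries 1 to 3. The difference on the log2 scale was -0.71 (SE 0.11). Every cKO library was below every Cre control. Hist1h3b was called higher, with 240.2, 238, 212 and 345 in Cre controls and 420.5, 485 and 393 in cKO. Its change was 0.76 (SE 0.18). Hist1h2bg, also called higher, held 326, 419.7, 325 and 432 in Cre controls and 634, 622 and 486 in cKO. Its change was 0.63 (SE 0.16). The largest falls were in Hist1h2bq and Hist2h2aa2, of whose stretches of 50 bases 2.68% and 0% are unique. Hist1h2bq held 106, 86.0, 126 and 116 in Cre controls and 11.9, 17.9 and 66.2 in cKO, a change of -2.09 (SE 0.52). Hist2h2aa2 held 323, 313, 372 and 296 in Cre controls and 43.7, 47.8 and 209 in cKO, a change of -2.08 (SE 0.51). In both genes the third cKO library was nearer to the Cre controls than the others were.

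Within the second kit there was 1 cKO library at each stage, and no test was made. The P14 cKO library shared its run with both Cre controls, and the P16 one with Cre control library 1 alone. Relative to the average of the 4 Cre controls, the P16 library of cKO had a median log2 difference of 0.06 over 62 members, with 25 lower and 37 higher. It lay below every Cre control in 12 members and above every one in 20, beside 30% and 24% of all genes. The class sums in that library were 103% of the Cre control mean for H1, 92.6% for H2A, 98.6% for H2B, 123% for H3 and 90.0% for H4. Against Cre control library 1, of the same run, the median was -0.01, with 32 lower and 30 higher, beside 0.00 and 50.3% lower over all genes. The class sums were then 92.2% for H1, 98.2% for H2A, 91.9% for H2B, 114% for H3 and 83.4% for H4. H3 was thus the one class above that library. Against the mean of the 4, members with large falls in the first kit lay on both sides of 0. The log2 differences were -0.03 for Hist3h2ba, 0.04 for Hist1h2bm, 0.00 for Hist1h1a, 0.05 for Hist1h4n, -0.30 for Hist1h4j and -0.49 for Hist1h4k. Against library 1 all 6 were below 0, at -0.27 for Hist3h2ba, -0.28 for Hist1h2bm, -0.18 for Hist1h1a, -0.13 for Hist1h4n, -0.35 for Hist1h4j and -0.41 for Hist1h4k. At P14 the median difference was 0.14, with 48 of 63 members higher. The third cKO library lay below both Cre controls in 6 members and above both in 35, beside 33.3% and 26.9% of all genes. All 11 H3 genes were higher there, by 0.17 to 0.72, as were 10 of 11 at P16.

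Whether the cKO change at P16 differed between kits was put as an interaction of genotype and kit over the 9 libraries of that stage, an analysis chosen after the values had been seen. It holds the 4 libraries that the rule read, so no p-values are given. Of the members, 4 were called, all less negative in the second kit, beside 0.0452% of 19932 genes, 9 in all, and edgeR called 8 members beside 0.0953%. The median over the members was 0.83, and 58 of 63 were positive. The share of all genes above 0 is not given. Of the gene lists described below, the S phase and spermatogonial lists had medians of 0.41 each in this term. The spermatocyte list had 0.06 and the Sertoli cell list -0.09. The largest called differences were Hist3h2ba at 1.82 (SE 0.25), Hist1h1a at 1.48 (SE 0.18) and Hist1h4j at 1.19 (SE 0.13). For Hist1h4j the Cre controls held 5817, 5554, 5138 and 5907 and the third cKO library 4553 in their table. In the table of the first kit the controls held 11379 and 11356 and cKO held 3887 and 4317. The term rests on a single cKO library of the second kit, and with eBayes without a trend there was no call. Without control library 1 or 2, cKO library 1 or 2, or Cre control library 3 of P16 there was also no call. Without Cre control library 1 there were 14 calls and without Cre control library 4 there were 24. The share over all genes is not given for these fits, and nothing is read from the counts. Kit and control type cannot be told apart in this term, and the Cre controls come from both runs of the second kit.

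**Figure D3:**
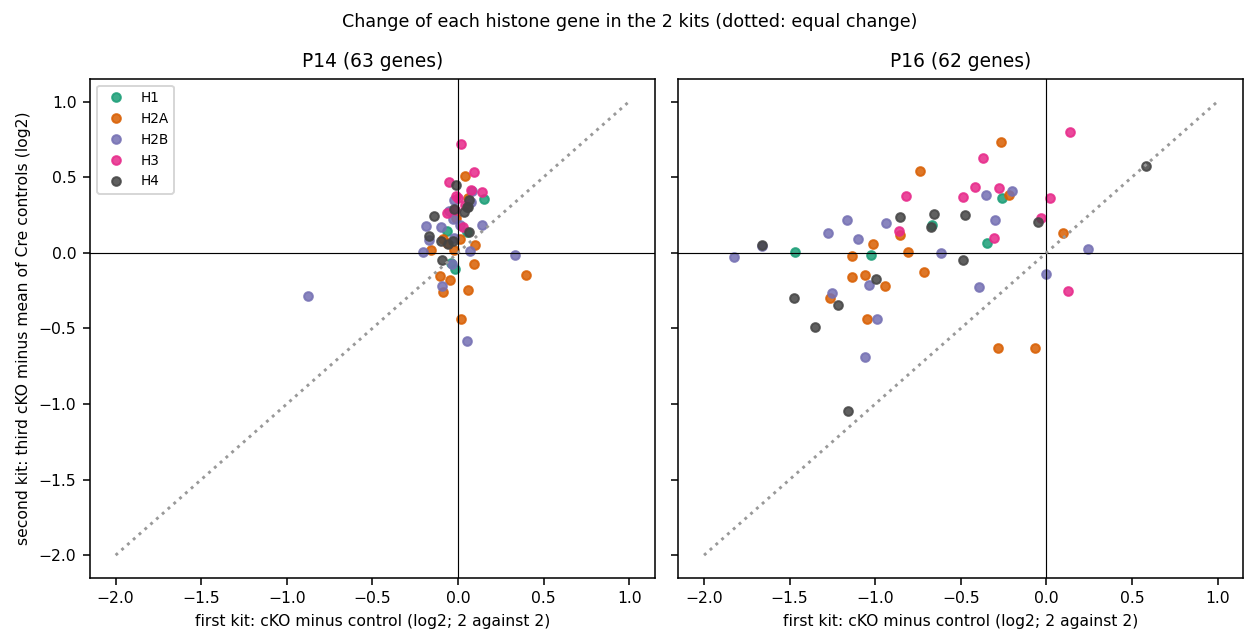
Each point is a histone gene; the x axis is its log2 change, cKO minus control, in the first kit, and the y axis the log2 difference between the third cKO library and the average Cre control, both of the second kit but at P16 of 2 runs, at P14 (63 genes) and P16 (62 genes). At P16 the points have a median of -0.74 in the first kit and of 0.06 in the second.

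Against Cre controls at P14, 0 members were called in either direction by limma and by edgeR, beside 0% of 18196 genes. There were 11 of 63 with an unadjusted p under 0.05, beside 3.87% of all genes, and the median was 0.33, beside -0.01. The 2 members with the smallest p were H3 genes. Hist1h3a held 952 and 1045 in Cre controls and 1610.0, 1571 and 1284 in cKO libraries 1 to 3, a change of 0.57 (SE 0.15, limma adjusted p 0.479, not called). Hist1h3c held 531 and 763 in Cre controls and 1288, 1356 and 850.0 in cKO, a change of 0.84 (SE 0.27, limma adjusted p 0.479, not called). In both, cKO library 3, which shares its kit with the Cre controls, was nearest to them. Without that library, all cKO libraries were of the first kit and all Cre controls of the second, so kit and genotype cannot be told apart. That fit called 28 members higher and 6 lower. The share over all genes is not given for it, and nothing is read from the counts.

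Between P14 and P16 the control types had different values. In controls of the first kit the summed level at P16 was 96.4% of that at P14. Of the members, 1 was called higher and 6 lower, beside 13.3% and 6.67% of 18581 genes (limma on log2 CPM), and the median was -0.12. The rule read these P16 libraries, so this is a description. Leaving out control P14 library 1 or P16 library 1 left 2 members called lower, and leaving out control P14 library 2 or P16 library 2 left 1. In Cre controls the summed level at P16 was 70.7% of that at P14. Of 62 members, 19 were called lower and 0 higher, beside 2.75% and 9.06% of 18819 genes (limma on log2 CPM, 4 against 2 libraries; 36 had an unadjusted p under 0.05, beside 27.4% of all genes, and edgeR called 0 higher). The median was -0.39, beside -0.01 over all genes. With eBayes without a trend there were 3 lower. Without Cre control P14 library 1 or library 2, 8 members were called lower, and without Cre control P16 library 3, 10. The cKO levels at P16 were 46.8% of those at P14 in the first kit and 62.3% in the third library.

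Hist1h2bm and Hist3h2ba were among the largest falls in Cre controls. Hist1h2bm held 184 and 234 RPM at P14 and 134, 78.5, 101 and 121 at P16, a difference on the log2 scale of -0.95 (SE 0.19, limma adjusted p 0.00868). Hist3h2ba held 130.5 and 149.8 at P14 and 88.9, 59.8, 67.7 and 85.9 at P16, a change of -0.89 (SE 0.15, limma adjusted p 0.00464). The stages did not overlap in either gene. Hist1h2ap, with few reads and near-identical copies, held 9.57 and 7.73 at P14 and 3.25, 2.56, 4.09 and 4.58 at P16, a change of -1.26 (SE 0.26, limma adjusted p 0.0118). Cre control P16 library 1 shares its sequencing run with the P14 libraries. It was lower than their mean in 46 of 62 members, with a median of -0.40, beside -0.05 and 54.1% lower over all genes. The mean of the 3 libraries of the other run was lower in 52, with a median of -0.35, beside 0.01 and 48.4% lower over all genes. In controls of the first kit, the largest called falls were Hist1h2ae at -0.55 (SE 0.16), Hist1h3b at -0.28 (SE 0.084) and Hist1h2bn at -0.26 (SE 0.066).

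Hist2h2be was the one member called higher from P14 to P16 in controls, by 0.96 (SE 0.15) on the log2 scale. It held 5.84 and 4.46 RPM at P14 and 9.65 and 10.3 at P16 in controls, and 5.16 and 6.24 and then 10.1 and 9.69 in cKO libraries 1 and 2. It was higher at P16 in both genotypes, without overlap. In Cre controls it held 4.35 and 2.14 at P14 and 6.63, 6.53, 7.41 and 3.54 at P16. The difference in stage change between the control types, also chosen after the values had been seen, gave no called member (limma, 0% of 19782 genes; edgeR 0). There were 19 members with an unadjusted p under 0.05, beside 7.03% of all genes, and the median was -0.26. The 2 members with the smallest p were Hist1h1c, with -0.74 (SE 0.14, not called), and Hist3h2ba, with -1.01 (SE 0.22, not called).

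**Figure D4:**
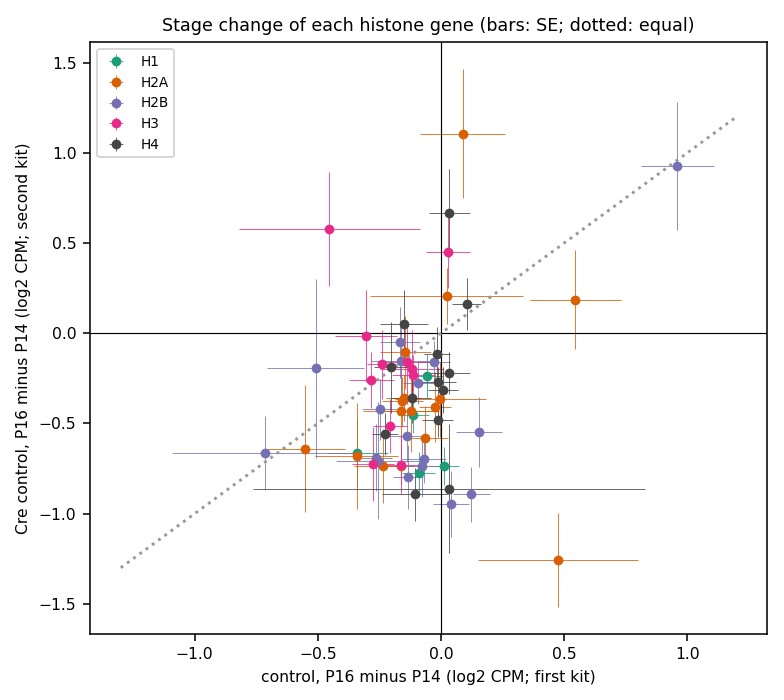
Stage change of each histone gene, P16 minus P14, in log2 CPM, in controls of the first kit and in Cre controls of the second kit. The members' medians are -0.12 in controls and -0.39 in Cre controls.

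The genes that serve the family were taken from lists of known roles. At P14 no gene of these lists was called in cKO against control by limma. At P16, 19.9% of all genes were called lower and 18.6% higher in cKO, and the counts below stand beside these shares. Of 13 tested genes for histone mRNA processing, 8 were lower and 1 higher in cKO, with a median of -0.18. Casp8ap2, which encodes FLASH, a partner of the U7 particle, held 4271 and 4147 in control and 2655 and 2737 in cKO, a difference on the log2 scale of -0.64 (SE 0.045, limma adjusted p 6.5e-07). Eri1, an exonuclease that trims histone mRNA ends, changed by -0.30 (SE 0.054, limma adjusted p 0.000855). Of 9 genes for histone gene transcription, 7 were lower and 1 higher. Npat, the histone gene coactivator that cyclin E with CDK2 phosphorylates, held 3292 and 3579 in control and 2487 and 2631 in cKO, a change of -0.42 (SE 0.053, limma adjusted p 6.04e-05). Ccne2, which encodes cyclin E2, changed by -0.67 (SE 0.066, limma adjusted p 1.07e-05). Of 13 histone chaperone and supply genes, 9 were lower and 0 higher. Asf1b, a chaperone of H3 and H4, changed by -0.66 (SE 0.048, limma adjusted p 9.44e-07), and Mms22l, which acts at replication forks, by -0.63 (SE 0.056, limma adjusted p 4.8e-06). All these changes are of the first kit. At P16 the third cKO library had log2 differences from the Cre control mean of -0.18 for Casp8ap2 and 0.19 for Eri1. They were 0.26 for Npat, -0.05 for Ccne2, -0.32 for Asf1b and -0.01 for Mms22l. Over all 3 cKO libraries against Cre controls, the list medians at P16 were 0.03 for processing, 0.14 for transcription and -0.24 for chaperones and supply.

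Of 20 S phase genes, 17 were lower and 0 higher in cKO at P16 (limma), beside 19.9% and 18.6% of all genes. Their median was -0.54. Mcm5, a subunit of the replicative helicase, held 4755 and 4716 in control and 2547 and 2487 in cKO, a change of -0.91 (SE 0.044, limma adjusted p 2.31e-08). Lig1, which joins nicks in new DNA, held 2741 and 2761 in control and 1409 and 1328 in cKO, a change of -1.01 (SE 0.051, limma adjusted p 3.79e-08). In Cre controls, 11 of the 20 were lower at P16 than at P14 and 0 higher, beside 2.75% and 9.06% of all genes. The median of the list there was -0.37. Summed over the list, the level was 1802 to 1826 CPM in P16 controls, 1282 to 1359 in cKO libraries 1 and 2, 1593 to 1798 in P16 Cre controls and 1522 in the third cKO library. The third cKO library was thus below all Cre controls for the S phase list but not for the histone sum. The part of these genes in the histone result was not tested.

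Histone genes outside the family gave mixed values. Of 10 genes listed as replacement histones, 4 were lower and 1 higher in cKO at P16, beside 19.9% and 18.6% of all genes. Their median was -0.09. H2afx, the H2A variant that is phosphorylated at DNA breaks, held 26541 and 27806 in control and 9156 and 10765 in cKO, a change of -1.45 (SE 0.061, limma adjusted p 9.06e-09). H1fx, a linker variant, changed by -0.54 (SE 0.078, limma adjusted p 0.000168). The 3 testis-specific genes that the choice of members left out were all lower in cKO. Hist1h2aa changed by -1.09 (SE 0.073, limma adjusted p 4.46e-07) and Hist1h2ba by -0.57 (SE 0.064, limma adjusted p 2.76e-05).

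**Figure D5:**
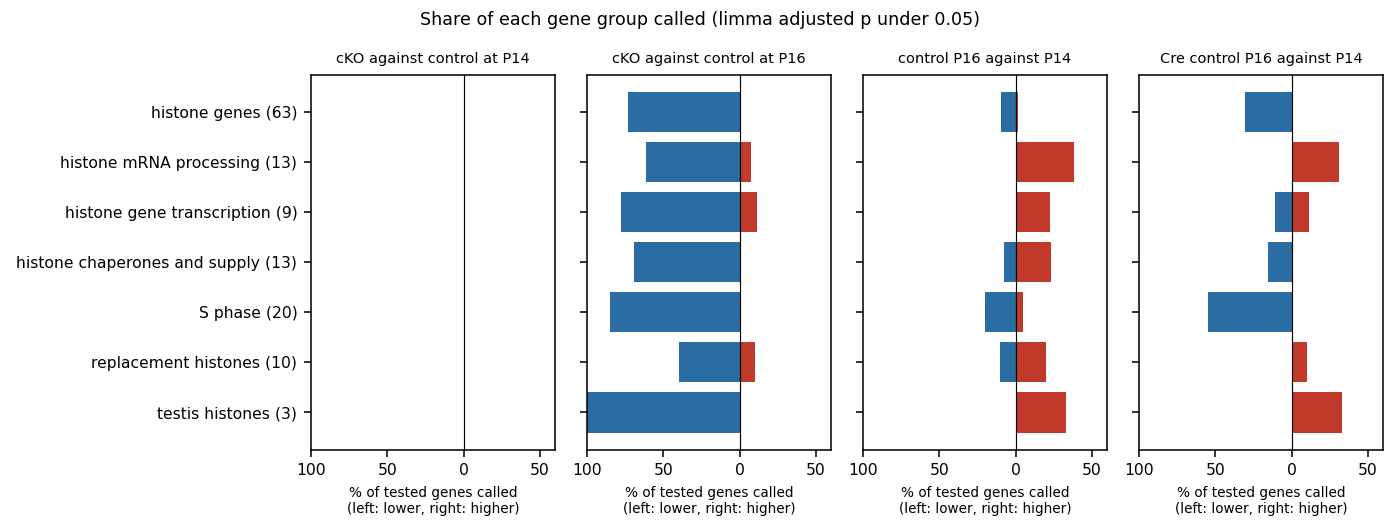
Share of tested genes called lower or higher by limma at adjusted p under 0.05, for the histone genes and the lists, by comparison. At P16, 46 of 63 histone genes and 17 of 20 S phase genes are called lower in cKO, beside 19.9% of all genes.

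In the first kit, more spermatogonial and spermatocyte markers were called lower than higher in cKO at P16. Their part in the histone result was not tested. Of 13 spermatogonial markers, 10 were lower and 1 higher, beside 19.9% and 18.6% of all genes. Their summed level was 933 to 953 CPM in P16 controls, 727 in both cKO libraries of the first kit, 784 to 969.6 in P16 Cre controls and 886 in the third cKO library. Stra8, which drives entry into meiosis, changed by -1.10 (SE 0.064, limma adjusted p 1.29e-07) and Lin28a, a progenitor RNA-binding protein, by -0.75 (SE 0.069, limma adjusted p 5.7e-06). Of 8 spermatocyte markers, 4 were lower and 1 higher, at 1709 to 1764 CPM in controls and 1405 to 1549 in cKO of the first kit. The P16 Cre controls held 1001 to 1496 CPM and the third cKO library 891. Prdm9, which marks recombination hotspots, changed by -1.63 (SE 0.077, limma adjusted p 2.31e-08). Sycp3, of the chromosome axis, changed by -0.36 (SE 0.047, limma adjusted p 7.63e-05). These changes are of the first kit. Relative to the Cre control mean, the third cKO library had log2 differences of 0.24 for Stra8, -0.06 for Lin28a, -0.50 for Prdm9 and -0.35 for Sycp3.

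In the first kit at P16, markers of 5 somatic cell types had more members called higher than lower. Over all genes, 18.6% were called higher and 19.9% lower. The lists hold few genes, so each count is a description. Of 7 Sertoli cell markers 4 were higher and 0 lower, at 764 to 777 CPM in P16 controls and 839 to 935 in cKO, with Fshr at 0.48 (SE 0.069) and Gata4 at 0.33 (SE 0.051). For Leydig cells 2 of 5 were higher, at 166 to 177 against 197 to 224 CPM, with Lhcgr at 0.34 (SE 0.084) and Hsd3b1 at 0.29 (SE 0.065). For peritubular cells 2 of 3 were higher, at 377 to 412 against 429 to 497 CPM, with Myh11 at 0.31 (SE 0.068) and Myl9 at 0.27 (SE 0.053). These are cells of the tubule wall and the tissue between tubules. For macrophages 4 of 5 were higher, at 46.6 to 47.0 against 66.8 to 68.5 CPM, with Adgre1 at 0.76 (SE 0.11) and C1qa at 0.66 (SE 0.096). For endothelium 2 of 3 were higher, at 93.9 to 102 against 113 to 117 CPM, with Kdr at 0.32 (SE 0.094) and Cdh5 at 0.27 (SE 0.058). Of 5 erythroid genes none was called, and their median was -0.10. They stood at 0.16 (SE 0.28) for Hba-a1, 0.50 (SE 0.29) for Hba-a2, -0.10 (SE 0.25) for Hbb-bs, -0.13 (SE 0.51) for Hbb-bt and -0.11 (SE 0.34) for Alas2, on both sides of 0. In these 4 libraries no marker of these lists was under 0.1 CPM, except 1 of 6 for Leydig cells. In the second kit, the third cKO library at P16 was above all Cre controls for Sertoli cells (1217 against 974 to 1167 CPM). So it was for macrophages (67.1 against 50.2 to 64.9) and endothelium (130 against 91.0 to 125). It lay among them for Leydig (142 against 120 to 161) and peritubular cells (414 against 353 to 436). Against Cre controls at P16, 0 genes of the 5 somatic lists were called, beside 4.3% higher and 4.77% lower of all genes.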

How the data were processed

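Total RNA from whole testis was sequenced after depletion of ribosomal RNA with 1 of 2 kits. Per the submitters' processing notes, Trim Galore, STAR, HTSeq and DESeq2 were used with GRCm39 (mm39). Versions, the strand setting and the annotation release are not given in the sources used here. The deposited values are a signal made by the authors: the reads of a gene over the library's size factor, set separately in each of 4 tables. They were multiplied back to whole reads with a tolerance of 0.05 reads, and 100% of values came out whole in each library. GENCODE M21 gave names, lengths and overlaps, and no coordinates of it are used with the files.

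Within a table, limma 3.58.1 (R 4.3.3, eBayes with trend) was run on log2(value + 1) over genes reaching 10 in 2 or more libraries, so a log2 change understates the change of low genes. Across tables it was run on log2 CPM of recovered reads (TMM, prior count 1, at least 10 reads in at least 2 libraries). P-values were adjusted by Benjamini-Hochberg over all genes tested, and a gene with an adjusted p under 0.05 is called. Recovered reads were also tested with edgeR 4.0.16 (quasi-likelihood). Other pseudocounts, filters, scalings, a replicate block, a kit covariate and leaving out each library were tried. Comparing the third cKO library with the Cre control of its own run was chosen after seeing the data. The fits were tested on simulated data.

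The members and lists were chosen with earlier results of these data known. Genes named are Ythdc2, the 3 members per class with the highest value per kilobase at P16, up to 3 called members per comparison and direction (or, where fewer than 3 were called, the 2 with the smallest p), and 2 per list with the smallest p at P16. Others are said to be chosen after their values were seen. For 5 members another annotated gene overlaps on the same strand and for 19 on the other strand, where reads may not be told apart.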

Additional observations from a re-analysis of the deposited data

Results flagged for a closer look

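In the 4 Cre control libraries of P16, 3 of the 32 groups examined for a single distant library had one, and chance flags about 1 in 20. The summed H2A level was 280, 289, 285 and 334 RPM, and the gap of library 4 to the nearest was 0.842 of the range, above Dixon's critical value for 4 samples. Hist1h2ab, with 640.2, 630.0, 644 and 802, had a gap of 0.921 for the same library. Hist1h4c, with 10488, 8332, 8558 and 8287, had a gap of 0.877 for library 1.

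The cKO effect in the first kit differed between P16 and P14 by limma's interaction in 37 members, all lower at P16, with -1.64 for Hist3h2ba, -1.48 for Hist1h4n and -1.44 for Hist1h2bm on the log2 scale. With eBayes without a trend there were 15. The cKO effect at P16 differed between the kits in 4 members, with 1.82 for Hist3h2ba, 1.48 for Hist1h1a and 1.19 for Hist1h4j. With eBayes without a trend there was no call, nor without control library 1 or 2, cKO library 1 or 2, or Cre control library 3 of P16, and the term rests on 1 cKO library of the second kit. Both interactions hold the P16 libraries that the choice of members read, so these counts and values are a description.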

How the results depend on the processing

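At P16 against control, 43 to 48 members were called lower under pseudocounts 0.1 and 10, no filter, TMM scaling, edgeR and the replicate block, 37 with eBayes without trend and 44 to 47 without 1 replicate. With both kits and the kit as a covariate there were 17 lower and 1 higher. The replicate block gave 1 higher, and leaving out 1 replicate gave 0 to 1. The interaction of stage and genotype gave 15 lower without trend, and without 1 replicate 31 to 40 lower and 0 to 1 higher. Against Cre controls at P14, the replicate block gave 31 higher and 6 lower, and leaving out cKO replicate 3 gave 28 higher and 6 lower. Both settings lack cKO replicate 3, so kit and genotype cannot be told apart in them. At P16 against Cre controls, pseudocount 0.1 gave 1 higher and 3 lower, pseudocount 10 gave 4 and 8, no filter 0 and 3, and edgeR 3 lower. Without trend, with the replicate block and with the kit as a covariate there were 0 and 0, and without 1 replicate 0 to 18 higher and 0 to 23 lower. In the control stage change the replicate block gave 2 higher and 10 lower, no filter 1 lower, without trend 0 lower, and without 1 replicate 1 to 2 higher and 1 to 9 lower. In the Cre control stage change there were 3 lower without trend, and without 1 replicate 0 to 2 higher and 8 to 23 lower. The kit difference gave 8 higher in edgeR, 0 without trend and 0 to 24 without 1 replicate, and could not be fitted without cKO P16 replicate 3. At P14 against control, 0 members were called under every alternative run. For most of these settings the share over all genes is not given, so nothing is read from their counts. The causes were not tested.

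Same-numbered libraries of control and cKO had correlated deviations of 0.19 at P14 and 0.08 at P16. With 2 libraries a group this is 1 value per stage, which cannot show whether the numbers pair the libraries, so the replicate block is given as a setting only. Among single genes, 890 values kept their direction and side of the threshold under an alternative, 154 were weaker, 9 stronger, 11 moved and 5 reversed. Hba-a1 at P16 went from 0.16 to between -0.45 and 0.76 without 1 replicate (-0.03 without control P16 replicate 1, -0.45 without cKO P16 replicate 2), and Hba-a2 from 0.50 to -0.17 with both kits and the kit as a covariate. Ythdc2's difference in stage change between control types went from 0.04 to -0.04 without control P14 replicate 2 and to -0.14 without Cre control P16 replicate 3.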

Other observations

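Within one genotype, the level of some members differed between cKO library 3 and cKO libraries 1 and 2. Kit and sequencing run cannot be told apart in this difference, and it rests on 1 second-kit library per stage. In the tables that hold cKO libraries of both kits, cKO library 3 was compared with the mean of cKO libraries 1 and 2 on the log2 scale. At P14, 5 of 63 members were higher by 1 or more and 11 lower by 1 or more, and at P16 6 were higher and 8 lower. Over all genes, 18.6% at P14 and 17.5% at P16 differed by that much. At P14, 2215 of 18196 genes were higher and 1169 lower, and at P16 2346 of 19200 were higher and 1008 lower. Hist1h2ao was higher by 2.37 at P14 and 2.78 at P16, Hist1h2ap by 2.77 and 2.17, Hist1h2bq by 2.29 and 2.10, Hist2h2aa2 by 2.04 and 2.17 and Hist2h3c2 by 1.54 and 1.48. All members higher by 1 or more were among the 32 in which under 50% of the stretches of 50 bases are unique, and none among the other 31. Of the members lower by 1 or more, 8 at P14 and 5 at P16 were among those 32, and 3 at each stage were among the other 31: Hist1h2ae at -1.22, Hist3h2a at -1.81 and Hist1h2bh at -2.11 at P14, and Hist3h2a at -1.20, Hist1h2bh at -1.40 and Hist2h2be at -1.02 at P16. Reads mapped to several places were 9.56% to 10.9% of reads in the first kit and 5.81% to 6.84% in the second. The part of this in the levels was not tested.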
